A study of Mus musculus with 6 samples.

Results

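The genes of the G1/S transition and of DNA replication were followed in the mouse uterus during the first day after a single progesterone injection. The set held 48 genes listed by symbol: the G1 and S phase cyclins, their kinases and E2f1, the proteins that license and fire replication origins, the enzymes of the replication fork, and the enzymes of nucleotide, histone and chromatin supply. A gene was taken where its symbol was the only one on a probe set in the platform annotation, and the probe set with the highest mean over the 6 arrays stood for the gene. This found 46 of the 48 genes, among 8251 genes named in the same way in the whole table. Pole was on no probe set by that symbol, and Tyms was only on 2 probe sets that carry several symbols.

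All arrays measured total RNA of whole uterus from ovariectomized 129/SvImJ wildtype females, 10 to 16 weeks old, on Affymetrix arrays. The uninjected group was collected at 0 h, which was 14 days after surgery, and the progesterone groups 6, 12, 15, 18 and 24 h after a subcutaneous dose of 0.2 mg in 0.1 mL of sesame oil. Each time had 1 array, hybridized with RNA pooled from 8 horns of 4 mice, so no group had a replicate. Oil without progesterone was not analysed here, so progesterone, oil, injection and time of day cannot be told apart in a difference from 0 h. Every such difference also shares the single 0 h array. Because horns were taken whole, fewer cells of a type and less RNA per cell cannot be told apart in any value below.

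Entry into S phase is driven by cyclin D with Cdk4 and then by cyclin E with Cdk2, which phosphorylate retinoblastoma proteins and free E2F factors to transcribe replication genes. Origins are licensed in G1, when the origin recognition complex, Cdc6 and Cdt1 load the Mcm2 to Mcm7 helicase, and fire in S phase, when Cdc45 and other factors switch the helicase on and polymerases follow with the Pcna sliding clamp. In the uterus of ovariectomized mice these genes are best known from the epithelium, where estradiol drives cells into S phase and progesterone given before it holds them in G1, partly by keeping cyclin D1 and Cdk4 out of the nucleus. Progesterone also prepares stromal cells to divide.

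Values are the deposited log2 expression, on which 1 unit is a 2-fold difference in signal. All arrays share a lower limit of 5.39. Levels of different probe sets were not set against each other. Array medians lay between 7.12 and 7.22, and the correlation over analysed probe sets was 0.932 to 0.948 between 0 h and each progesterone array and 0.953 to 0.989 among progesterone arrays. A probe set was analysed where it stood above 6.60, the 40th percentile of all values, on at least 2 arrays, and lower values were raised to that floor before differences were taken. This kept 7731 probe sets and 34 of the 46 genes, 31 of them above the floor on all 6 arrays. The label of the tissue matched its markers: 14 of 14 uterine epithelial, 8 of 9 smooth muscle and 7 of 9 stromal markers passed that filter, and so did 3 of 8 B and T cell markers, Ms4a1, Cd79a and Cd2, whereas Cd3g and Cd79b sat at the lower limit on every array.

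Most of the 34 genes were slightly lower at 6 h than in uninjected uteri, most were slightly higher at 12, 15 and 24 h, and few differences reached 1.5-fold (0.58 on the log2 scale). The median difference of the 34 genes from 0 h was -0.16 at 6 h, then 0.16 at 12 h, 0.11 at 15 h, and later 0.02 at 18 h and 0.08 at 24 h, against -0.05, 0.03, 0.03, -0.04 and 0.00 over all analysed probe sets. At 6 h, 22 of the 34 genes were below 0 h and 11 above, and at 12 h, 11 were below and 23 above. At 15 h, 20 of the 34 were above 0 h, and at 24 h, 24 were. Over all probe sets, 58.2% were below 0 h at 6 h and 54.4% above it at 12 h. At 15 and 24 h, 53.4% and 49.7% of them were above it. The counts of the 34 genes at 6 and 15 h thus lay near the shares of all probe sets. The cyclin and kinase group had medians of 0.01, 0.25, 0.11, 0.04 and 0.04 at the 5 times, the licensing group -0.13, 0.18, 0.08, -0.03 and -0.01, and the fork enzymes -0.19, 0.01, 0.00, -0.01 and 0.09. Values below 0 h at 6 h were thus most frequent among the fork enzymes, with 10 of 13 below 0 h, against 5 of 8 licensing factors and 3 of 7 cyclins, kinases and E2f1, and the licensing share is close to that of all probe sets.

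At 6 h, 2 of the 34 genes, Ccnd1 and Cdk2, were at least 1.5-fold lower and 0 were higher, where 5.82% of all probe sets were lower and 4.52% higher by that much. At 12 h, Pcna alone was 1.5-fold higher and 0 genes were lower (6.77% of all probe sets higher, 5.98% lower). At 15 h, Cdk4 and Pcna were higher and 0 genes lower (8.05% and 5.71% of all probe sets). No gene passed in either direction at 18 h (4.44% of all probe sets higher, 6.83% lower), and Cdk4 alone was higher at 24 h with 0 genes lower (4.78% and 4.95%). These shares of the 34 genes, at most 2 per time and direction, lay near or below those of the whole array, and with 1 array per time none of the single-time differences has a test.

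**Figure D1:**
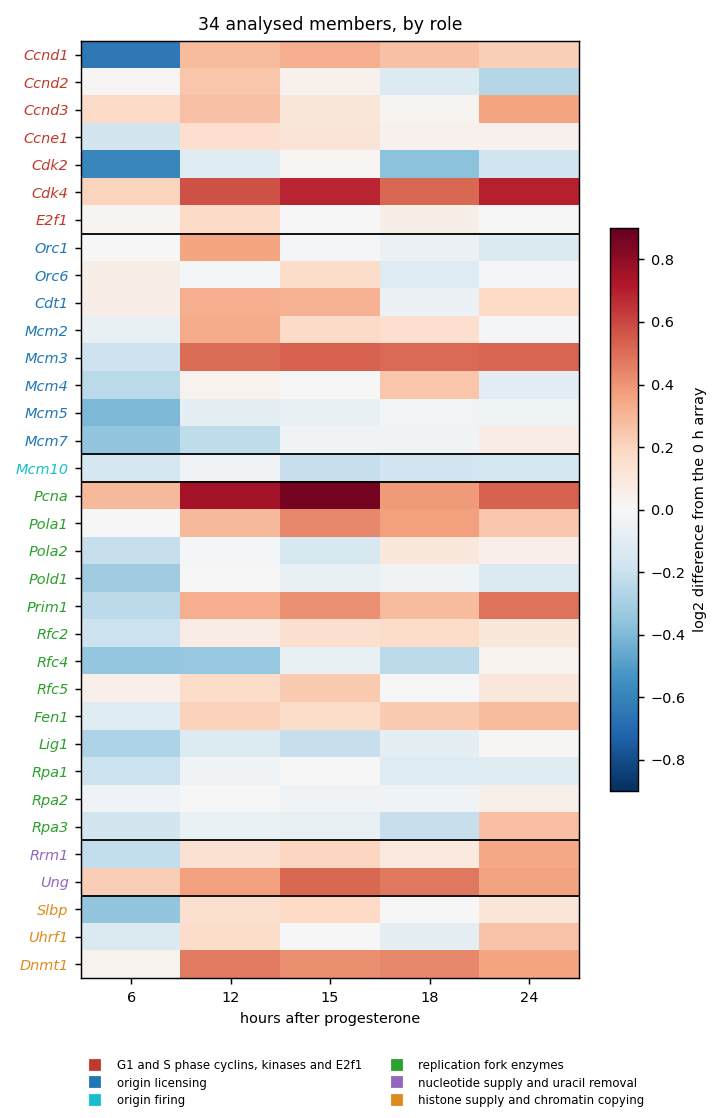
Difference in log2 expression from the uninjected 0 h array for the 34 analysed genes (rows, grouped and coloured by role) at each time after progesterone (columns, in hours). Red is higher and blue lower than at 0 h, on a scale from -0.9 to 0.9. The 6 h column holds most of the blue, and Cdk4, Pcna, Mcm3, Dnmt1, Prim1, Pola1 and Ung are among the rows that stay red from 12 h on.

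Among the cyclins and kinases, Cdk4 had the largest mean difference from uninjected uteri. Cdk4, the kinase partner of the D cyclins, measured 9.93 at 0 h, then 10.13 at 6 h, 10.51 at 12 h, 10.61 at 15 h, and later 10.45 at 18 h and 10.63 at 24 h. All 5 progesterone arrays stood above the 0 h array, and the 4 later ones above 6 h. Its second probe set was likewise lowest at 0 h and next lowest at 6 h, with 5.88 at 0 h, 6.60 at 6 h and 6.79 to 6.92 later, so that its 0 h value was below the floor. Over the 5 progesterone arrays Cdk4 averaged 10.47 against 9.93 at 0 h, a difference of 0.53 ± 0.19 (SE) with an adjusted p of 0.174 in limma.

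The promoter window of Cdk4 is shown because it holds 4 copies of the E-box letters CACGTG, the core recognised by Myc and Max, which begin 172, 118, 98 and 11 bases before the transcription start and read the same on either strand. The window is RefSeq's, on GRCm38.p6 at chr10:127063285-127063584, plus strand, from 250 bases before the start to 50 bases of transcript, with the E-boxes in capitals.
Cdk4: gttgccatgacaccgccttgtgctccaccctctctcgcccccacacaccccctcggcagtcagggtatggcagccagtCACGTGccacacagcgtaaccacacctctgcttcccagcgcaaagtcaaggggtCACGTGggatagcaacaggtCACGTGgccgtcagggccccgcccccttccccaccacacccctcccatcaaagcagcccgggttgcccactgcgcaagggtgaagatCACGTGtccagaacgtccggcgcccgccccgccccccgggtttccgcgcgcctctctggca

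Cyclin D1 lay furthest below 0 h at 6 h among the 34 genes. Ccnd1, the D cyclin that growth signals induce in G1, measured 9.25 at 0 h, followed by 8.61 at 6 h, 9.53 at 12 h, 9.58 at 15 h, with 9.51 at 18 h and 9.46 at 24 h. The 6 h array was the lowest of the 6, and the 4 later arrays stayed within 0.12 of each other and above 0 h by 0.21 to 0.33. A second Ccnd1 probe set did not follow it: it measured 7.77 at 0 h and, after progesterone, 7.54 at 6 h, 7.65 at 12 h, 7.54 at 15 h, then 7.36 at 18 h and 7.40 at 24 h. Its differences from 0 h were negative at all 5 times, so the direction of Ccnd1 after 6 h differs between its probe sets.

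The other D cyclins differed less from 0 h at 6 h. Ccnd2 measured 8.40 at 0 h, then 8.41 at 6 h, 8.64 at 12 h, 8.43 at 15 h, and later 8.27 at 18 h and 8.14 at 24 h, highest at 12 h and lowest at 24 h. Ccnd3 measured 8.68 at 0 h, followed by 8.85 at 6 h, 8.94 at 12 h, 8.79 at 15 h, with 8.70 at 18 h and 9.03 at 24 h, above 0 h on all 5 arrays by 0.03 to 0.35. Neither had the low 6 h value of Ccnd1.

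Ccne1, the cyclin that activates Cdk2 at the end of G1, measured 9.80 at 0 h and, after progesterone, 9.63 at 6 h, 9.95 at 12 h, 9.91 at 15 h, then 9.84 at 18 h and 9.84 at 24 h. Cdk2 measured 7.51 at 0 h, then 6.92 at 6 h, 7.40 at 12 h, 7.53 at 15 h, and later 7.14 at 18 h and 7.33 at 24 h. Cyclin E1 and its kinase were both lowest at 6 h, by 0.17 and 0.59 below 0 h, and Cdk2 was above 0 h only at 15 h, by 0.02. E2f1, the transcription factor that these kinases release, stayed between 6.52 and 6.77, near the floor. Ccne2 sat at the lower limit on all arrays.

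**Figure D2:**
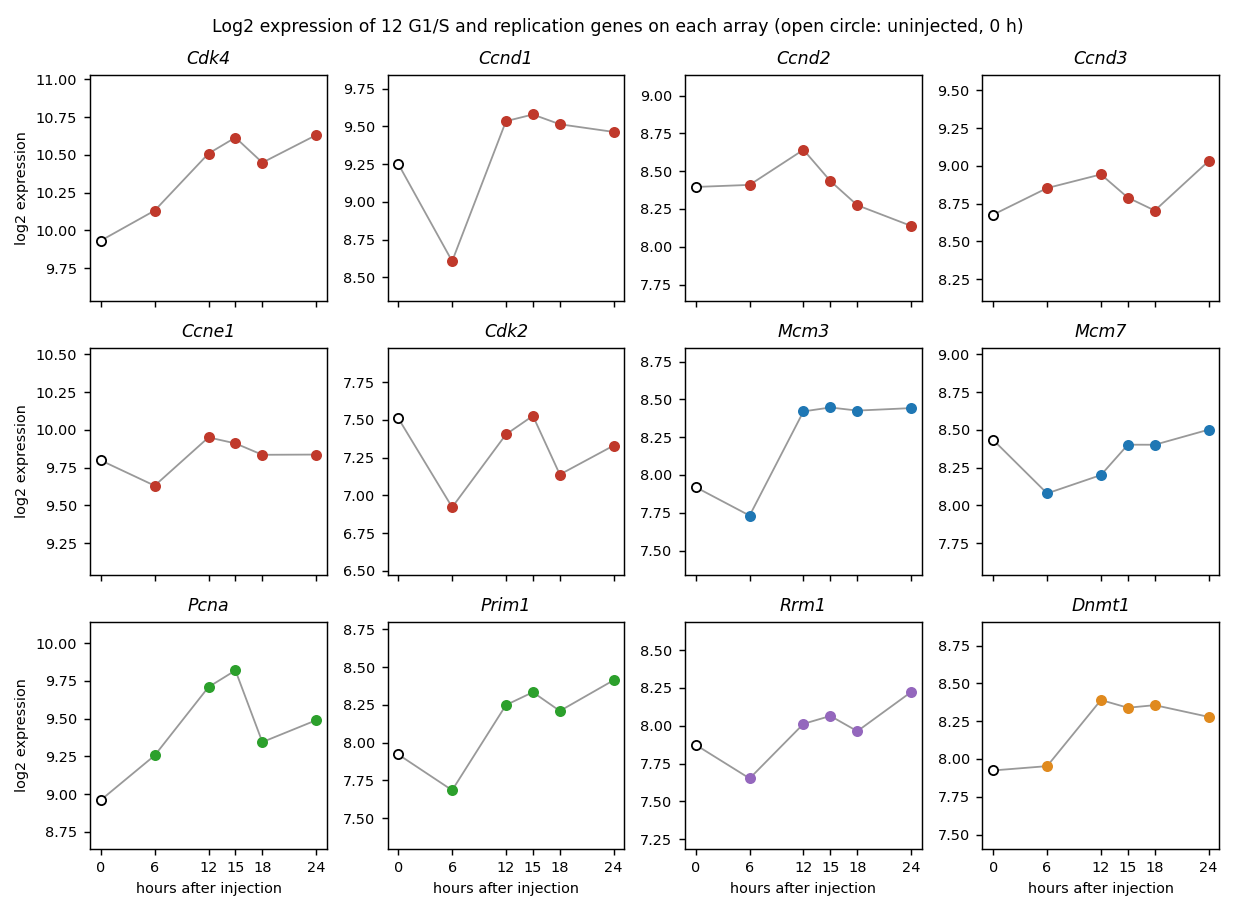
Log2 expression (vertical axes, each spanning 1.5 units) of 12 genes on each of the 6 arrays against hours after injection. Filled circles are progesterone arrays, coloured by role as in the map of differences, and open circles are the uninjected array. Ccnd1, Ccne1, Cdk2, Mcm3, Mcm7, Prim1 and Rrm1 have their lowest point at 6 h, whereas Cdk4 and Pcna are lowest at 0 h.

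Among the licensing factors, Mcm3 stood apart from the other helicase subunits. Mcm3 measured 7.92 at 0 h, followed by 7.73 at 6 h, 8.42 at 12 h, 8.45 at 15 h, with 8.43 at 18 h and 8.44 at 24 h. It was lower than at 0 h on the 6 h array alone, and the 4 later arrays lay within 0.03 of each other. Its second probe set had the same shape, with 6.96 at 0 h and, after progesterone, 6.83 at 6 h, 7.42 at 12 h, 7.48 at 15 h, then 7.51 at 18 h and 7.54 at 24 h.

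The other subunits of the ring did not keep pace with Mcm3. Mcm2 measured 6.97 at 0 h, then 6.90 at 6 h, 7.30 at 12 h, 7.14 at 15 h, and later 7.12 at 18 h and 6.96 at 24 h. Mcm4 measured 7.92 at 0 h, followed by 7.68 at 6 h, 7.95 at 12 h, 7.91 at 15 h, with 8.17 at 18 h and 7.82 at 24 h. Mcm7 measured 8.43 at 0 h and, after progesterone, 8.08 at 6 h, 8.20 at 12 h, 8.40 at 15 h, then 8.40 at 18 h and 8.50 at 24 h. All 3 were lowest at 6 h, and their later differences from 0 h stayed between -0.23 and 0.33. Mcm6 was at the lower limit on all 6 arrays.

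Mcm5 was read differently by its probe sets. On the probe set with the higher mean it measured 9.88 at 0 h, then 9.47 at 6 h, 9.80 at 12 h, 9.81 at 15 h, and later 9.85 at 18 h and 9.84 at 24 h, so that only the 6 h array stood clearly below the rest. The other measured 9.15 at 0 h, then 7.59 at 6 h and 7.45 at 12 h, with no value deposited for the 3 later arrays. On those 3 arrays it fell by 1.62 ± 0.18 on the log2 scale (SE, limma adjusted p = 0.027, 1 residual degree of freedom), and it was called in no fit without 1 of the arrays. The direction is thus the same at 6 and 12 h on both probe sets, but the size is not.

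The analysed licensing factors outside the ring stayed within 0.5 log2 units over the 6 arrays. Cdt1, which brings the Mcm ring to origins, measured 8.27 at 0 h, followed by 8.33 at 6 h, 8.59 at 12 h, 8.58 at 15 h, with 8.21 at 18 h and 8.44 at 24 h. Its second probe set was below 0 h at all 5 times, by 0.09 to 0.25. Orc6, a subunit of the origin recognition complex, stayed between 7.48 and 7.76, and Orc1 between 7.21 and 7.69. Mcm10, which joins the helicase as origins fire, was 0.03 to 0.21 below 0 h at all 5 times.

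The promoter of Mcm3 is shown because it carries E2F letters at 2 places and the gene has the largest step of the helicase subunits. The letters searched were TTTCCCGC, TTTCGCGC, TTTGCCGC and TTTGGCGC on both strands, and those found are in capitals. They begin at bases 20 and 39 of the transcript, the first match read on the opposite strand. The window is chr1:20820263-20820562 of GRCm38.p6, minus strand, from RefSeq.
Mcm3: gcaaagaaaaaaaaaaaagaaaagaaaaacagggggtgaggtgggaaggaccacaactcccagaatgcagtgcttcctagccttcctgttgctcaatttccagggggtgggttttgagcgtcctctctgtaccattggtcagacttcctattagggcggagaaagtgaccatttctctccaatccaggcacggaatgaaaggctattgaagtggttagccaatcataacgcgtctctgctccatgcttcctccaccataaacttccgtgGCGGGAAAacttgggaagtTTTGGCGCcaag

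Of the fork proteins, Pcna differed most from uninjected uteri. Pcna, the sliding clamp that holds DNA polymerase on its template, measured 8.96 at 0 h and, after progesterone, 9.26 at 6 h, 9.71 at 12 h, 9.82 at 15 h, then 9.34 at 18 h and 9.49 at 24 h. All 5 progesterone arrays were above 0 h, by 0.30 to 0.86, with the highest at 15 h. The mean of the 5 was 9.52 against 8.96 at 0 h, a difference of 0.56 ± 0.22 (SE, limma adjusted p = 0.210). Rpa1, which coats single-stranded DNA, measured 9.15 at 0 h, then 8.96 at 6 h, 9.12 at 12 h, 9.15 at 15 h, and later 9.03 at 18 h and 9.04 at 24 h. Rpa1 therefore had a spread of 0.19 over the arrays, less than the 0.86 of Pcna.

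Prim1, Pola1 and Fen1, chosen after their values were seen, were also lowest at 6 h and highest between 15 and 24 h. Prim1, the catalytic subunit of primase, measured 7.92 at 0 h, followed by 7.68 at 6 h, 8.25 at 12 h, 8.33 at 15 h, with 8.21 at 18 h and 8.41 at 24 h. Pola1, the polymerase that extends its primers, measured 6.49 at 0 h and, after progesterone, 6.48 at 6 h, 6.89 at 12 h, 7.03 at 15 h, then 6.97 at 18 h and 6.84 at 24 h, so its 0 and 6 h values lay below the floor. Fen1, the nuclease that trims Okazaki fragments, was at 7.23 at 6 h and 7.50 to 7.63 later, against 7.34 at 0 h. The other 8 fork proteins analysed, Pola2, Pold1, Lig1, Rfc2, Rfc4, Rfc5, Rpa2 and Rpa3, differed from 0 h by between -0.35 and 0.27 at every time. Second probe sets of Pola2 and Rfc5 had median differences of the other sign, 0.09 against -0.01 for Pola2 and 0.00 against 0.10 for Rfc5.

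Pola1 and Dnmt1 carry E2F letters in their windows too, and both are printed so that their spacing can be set beside that of Mcm3. The Pola1 match begins 138 bases before the start and is read on the opposite strand, in chrX:93632106-93632405, minus strand. Of 3 Dnmt1 windows, the one shown, chr9:20952574-20952873, minus strand, has a match 219 bases before the start on the opposite strand and another at base 34 of the transcript.
Pola1: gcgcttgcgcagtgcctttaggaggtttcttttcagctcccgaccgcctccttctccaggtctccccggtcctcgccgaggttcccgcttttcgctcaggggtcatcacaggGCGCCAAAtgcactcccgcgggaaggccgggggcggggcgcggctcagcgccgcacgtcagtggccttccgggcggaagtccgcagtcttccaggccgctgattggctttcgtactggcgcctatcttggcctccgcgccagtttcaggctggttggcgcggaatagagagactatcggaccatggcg
Dnmt1: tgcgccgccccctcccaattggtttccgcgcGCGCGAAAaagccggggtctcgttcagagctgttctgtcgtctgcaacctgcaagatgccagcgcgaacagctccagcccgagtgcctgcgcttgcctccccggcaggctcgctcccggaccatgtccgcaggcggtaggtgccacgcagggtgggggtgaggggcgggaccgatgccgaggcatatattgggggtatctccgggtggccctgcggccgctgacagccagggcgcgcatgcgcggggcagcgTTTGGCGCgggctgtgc

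In nucleotide supply, Rrm1 and Ung were the genes above the filter. Rrm1, the large subunit of ribonucleotide reductase, measured 7.87 at 0 h, then 7.65 at 6 h, 8.01 at 12 h, 8.06 at 15 h, and later 7.96 at 18 h and 8.22 at 24 h. Ung, which removes uracil from DNA, measured 7.79 at 0 h, followed by 8.01 at 6 h, 8.16 at 12 h, 8.31 at 15 h, with 8.27 at 18 h and 8.15 at 24 h. Rrm1 was below 0 h at 6 h alone, and Ung was above 0 h on all 5 arrays, by 0.22 to 0.52 (mean difference 0.39 ± 0.15, SE, limma adjusted p = 0.216). A second Ung probe set stayed below the floor, between 6.21 and 6.34.

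The 3 genes of histone supply and chromatin copying that were analysed were all higher at 12 h than at 6 h. Slbp, which binds histone mRNAs, measured 8.22 at 0 h and, after progesterone, 7.86 at 6 h, 8.36 at 12 h, 8.40 at 15 h, then 8.23 at 18 h and 8.33 at 24 h. Dnmt1, the maintenance DNA methyltransferase, measured 7.92 at 0 h, then 7.95 at 6 h, 8.39 at 12 h, 8.34 at 15 h, and later 8.36 at 18 h and 8.28 at 24 h. At 6 h these genes differed: Slbp was 0.36 below 0 h and Dnmt1 0.03 above. Uhrf1, which guides Dnmt1 to newly copied DNA, stayed between 7.18 and 7.56.

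The 12 genes found but not analysed include several that are usually sharp markers of S phase. Ccne2, Cdc6, Mcm6, Cdc45, Prim2, Rfc3, Rrm2, Tk1, Chaf1a and Chaf1b were never above the floor, and Orc2 and Dut were above it once. Tk1, thymidine kinase, had deposited values of 5.98 at 0 h, 5.55 at 6 h and 5.86 to 6.11 later. Rrm2, the small subunit of ribonucleotide reductase, was at the limit at 0 and 6 h and at 5.64 to 5.77 later. Such signals lie within the range in which the common lower limit compresses differences, so the sizes are uncertain. A second Tk1 probe set was at the limit at 6 h and at 6.46 at 24 h. It was called in the slope with the lower floor of the 20th percentile. Orc2 was called after 6 h with no filter, as a fall. It measured 6.61 at 6 h, its only value above the floor, and 6.56, 6.52, 6.15 and 6.26 at 12, 15, 18 and 24 h. Where values below the floor are raised to it, that fall is only the excess of the 6 h value over the floor.

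Measured over all 5 progesterone arrays against 0 h, no gene of the set passed the test on the probe set that stood for it. In limma with the progesterone arrays as 1 group (4 residual degrees of freedom, so that changes between times count as spread), 0 of 34 genes passed upward and 0 downward (adjusted p below 0.05), where 0.893% of 7724 probe sets rose and 1.8% fell. The largest estimates were 0.56 for Pcna, 0.53 for Cdk4 and 0.39 for Ung, all higher than at 0 h. Without the 6 h array, Cdk4 (0.62, adjusted p = 0.030) and Mcm3 (0.51, adjusted p = 0.039) were called in limma. Of the 34 estimates 21 were positive and 13 negative, with a median of 0.04, against a median of 0.00 over all probe sets.

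A slope over the 5 progesterone arrays also called none of the 34. There were 0 rises and 0 falls in limma, against 1.02% of 7731 probe sets that rose and 0.88% that fell. Unadjusted, 8 genes passed, all upward: Ccnd1, Cdk4, Mcm3, Mcm7, Prim1, Rfc4, Fen1 and Rrm1. Their estimates were 0.36 to 0.76 log2 units over the 18 h between the first and last array. Of all 7731 probe sets, 894 rose and 763 fell at the same unadjusted threshold. Several of these slopes rest on the 6 h array. Without it 2 genes of the whole set passed unadjusted, counted in either direction, as did 939 of all probe sets. Ccnd2, which is not among the 8, then had a slope of -0.73 ± 0.19 (SE). The slope was then -0.14 for Ccnd1, 0.02 for Mcm3 and 0.12 for Cdk4. In all 11 alternatives it stayed positive for Rrm1 (at least 0.29), Prim1 (at least 0.20) and Mcm7 (at least 0.14). The median slope of the 34 was 0.25 against 0.02 over all probe sets, and 26 of 34 were positive, against 53.5% of all probe sets. By role, 12 of 13 fork enzymes, 4 of 8 licensing factors and 5 of 7 cyclins, kinases and E2f1 had a positive slope.

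The step between 6 and 12 h was the most widely shared feature of the set. Of the 34 genes, 33 were higher at 12 h than at 6 h, with Orc6 the exception at -0.07, against 64.2% of all probe sets. The median step was 0.28 for the 34 and 0.08 for all probe sets. Ccnd1 (0.93) and Mcm3 (0.69) were at least 1.5-fold higher at 12 h and 0 genes were lower, where 2.34% of all probe sets were higher and 1.54% lower. All 4 later arrays stood above 6 h for 24 of the 34 genes, against 37.1% of all probe sets. All 4 stood below it for 0, against 21.4%. The step was less widely shared among replication factors outside the set. Of 17 such genes analysed, 12 were higher at 12 h than at 6 h, with a median step of 0.12. All 4 later arrays stood above 6 h for 9 of the 17 and below it for 4.

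The comparison of the 12 to 24 h arrays with the 6 h array was added after this pattern had been seen, so it describes the pattern and is no independent test of it. Ccnd1 rose: its 4 later arrays averaged 9.52 against 8.61 at 6 h, a difference of 0.92 ± 0.09 (SE, limma adjusted p = 0.033). It was the only 1 of 34 genes to rise, and 0 fell, where 0.0906% of 7726 probe sets rose and 0.246% fell. The call for Ccnd1 was lost without the 12, 15, 18 or 24 h array (adjusted p 0.087 to 0.184) and, narrowly, with a floor at the 20th percentile or no intensity trend (0.051 and 0.055), and its second probe set has no such step. Mcm3 (0.70 ± 0.10, adjusted p = 0.063) and Prim1 (0.62 ± 0.12, adjusted p = 0.094) came next and were not called in limma. Of the 34 estimates, 32 were positive (60.4% of all probe sets), with a median of 0.24 against 0.06 over all probe sets. The single 6 h array stands behind every one of these values, and its own error was not measured.

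**Figure D3:**
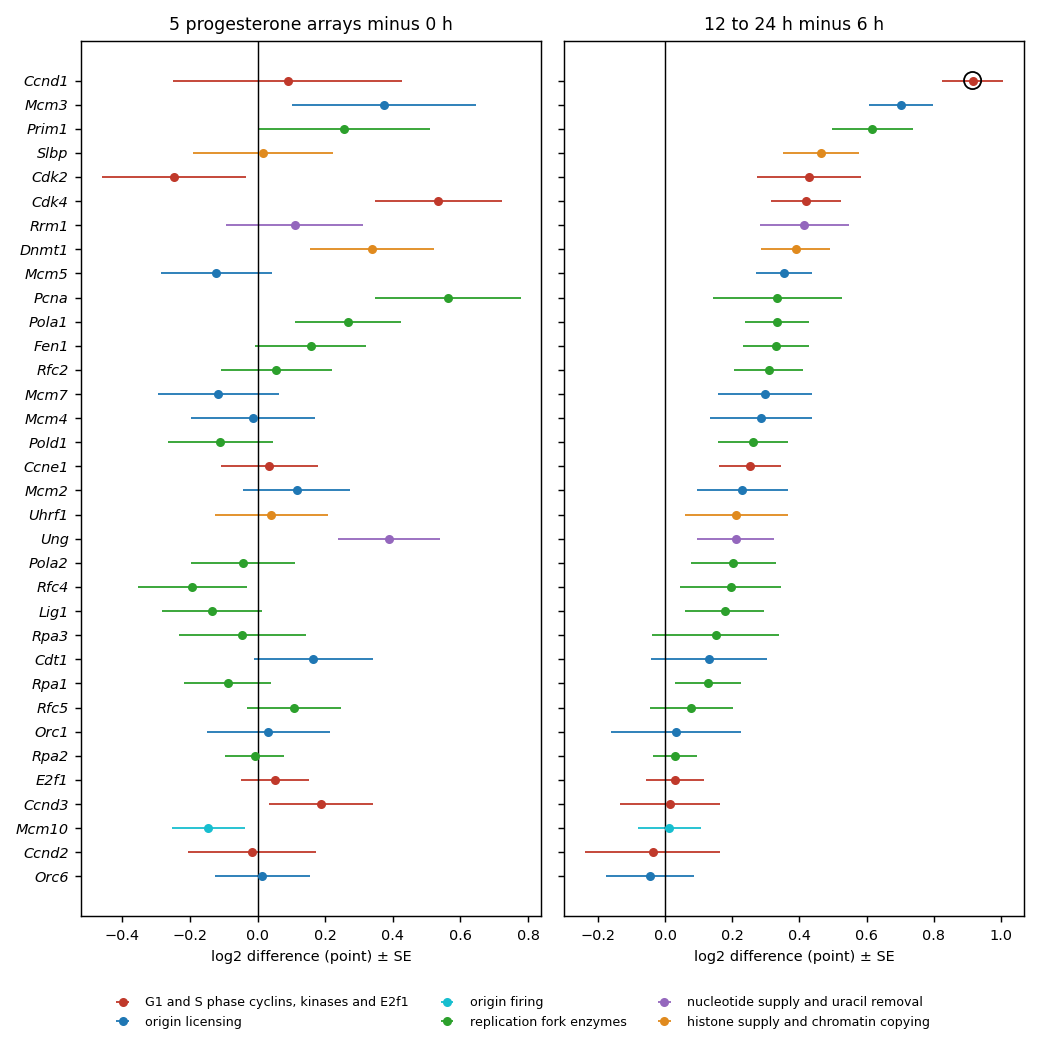
Estimate (point) and standard error (bar) on the log2 scale for the 34 analysed genes, coloured by role, for the 5 progesterone arrays minus the 0 h array (left) and the 12 to 24 h arrays minus the 6 h array (right). The ring marks Ccnd1, the gene at an adjusted p under 0.05 on the right. On the left the points straddle 0, with Pcna and Cdk4 farthest to the right, and on the right 32 of 34 are above 0.

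Markers of the cells in the horn moved over the same arrays. The summed linear signal of the 8 smooth muscle markers with a value on every array was 12840 at 6 h and 15666 to 18404 on the later arrays, against 13719 at 0 h. Of the 8 that passed the filter, 5 were below 0 h at 6 h, and all 7 with a value were above it at 15, 18 and 24 h. The 14 uterine epithelial markers summed to 8258 to 9703 on the progesterone arrays and 12116 at 0 h, with 11 of 14 lower on all 5 arrays and 6 of 14 called as falling. The 7 stromal markers went both ways: Lum and Col1a2 were lowest at 6 h and rose in the slope (limma adjusted p = 0.016 for both), with differences from 0 h of -1.22 at 6 h and 0.22 at 24 h for Lum and of -0.23 and 1.37 for Col1a2, whereas Hoxa11 was 1.28 above 0 h at 6 h and Pdgfra stayed within 0.13 of it. The 4 adipocyte markers summed to 1923 at 0 h and 962 to 1345 after progesterone, with 2 lower on all 5 arrays and 0 higher. For 11 markers of macrophages and other leukocytes the sums were 5712 and 4611 to 5091, with 5 lower and 0 higher. For 10 endothelial markers they were 4359 and 3463 to 3860, with 1 lower and 2 higher. The part of these shifts in the values of the replication genes was not tested.

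Among the genes that restrain or assist the G1/S step, 1 fell. Cdkn1c, the Cdk inhibitor p57, measured 10.42 at 0 h, followed by 9.65 at 6 h, 9.55 at 12 h, 9.78 at 15 h, with 9.56 at 18 h and 9.64 at 24 h. All 5 progesterone arrays lay below 0 h by at least 0.64, and it fell by 0.79 ± 0.13 on the log2 scale (SE, limma adjusted p = 0.027). It was called in 6 of 10 alternatives and lost without the 12, 15, 18 or 24 h array (adjusted p 0.056 to 0.101). It was the only 1 of 10 genes analysed from a list of 20 inhibitors, retinoblastoma proteins and E2F partners that was called. The Cdk inhibitors Cdkn1a, Cdkn2c and Cdkn2d had differences of -0.14, -0.29 and -0.04 that were not called. Of a further 34 replication factors, such as Pold2, Pole3 and Rfc1, 17 were analysed and 0 were called against 0 h or in the slope (unadjusted, 0 and 5 in limma).

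Genes of mitosis, the phase after replication, had their highest median difference from 0 h at 24 h. Of 31 listed, 15 were analysed, and 2 rose over the progesterone arrays in the slope, with 0 falling. Cdk1, the mitotic kinase, measured 6.62 at 0 h and, after progesterone, 5.96 at 6 h, 6.69 at 12 h, 7.05 at 15 h, then 7.31 at 18 h and 7.71 at 24 h. Stmn1, a tubulin-binding protein of dividing cells, measured 8.73 at 0 h, then 7.95 at 6 h, 8.13 at 12 h, 8.12 at 15 h, and later 8.53 at 18 h and 9.31 at 24 h. Both were lowest at 6 h and highest at 24 h, with slopes of 1.19 ± 0.17 and 1.34 ± 0.25 log2 units over 18 h (SE, limma adjusted p = 0.027 and 0.044). Both calls were lost when any 1 of the 5 arrays was left out (adjusted p 0.070 to 0.301), and also with no filter or with 0 h included in the slope. With a floor at the 60th percentile Stmn1 was not called and Cdk1 was not fitted. Over all alternatives the slopes ranged from 0.86 to 1.77 for Cdk1 and from 0.46 to 1.89 for Stmn1. The median difference of the mitosis list from 0 h was -0.16, 0.04, -0.12, 0.03 and 0.23 at the 5 times, highest at 24 h, where that of the replication genes was highest at 12 h. The difference in timing between the lists was not tested.

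**Figure D4:**
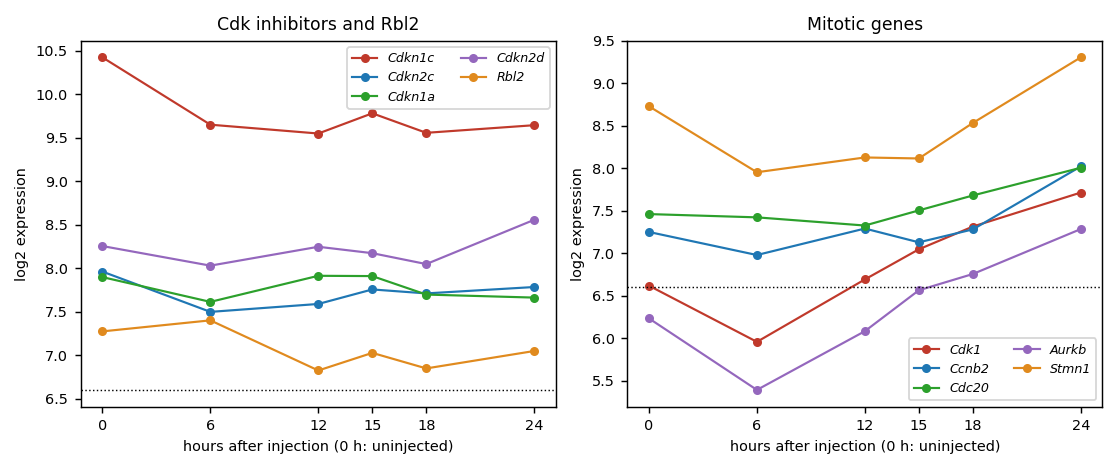
Log2 expression on each array against hours after injection for 4 Cdk inhibitors and Rbl2 (left) and for 5 mitotic genes (right), with the dotted line at the floor of 6.60. Cdkn1c lies lower on all 5 progesterone arrays than at 0 h, and Cdk1 and Stmn1 climb to their highest value at 24 h. Genes other than Cdkn1c, Cdk1 and Stmn1 were chosen after their values were seen and were not called.

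What the promoters share was counted in RefSeq windows of GRCm38.p6, available for 41 of the 48 genes in 50 windows. E2F letters, as listed for Mcm3, were found in 14 of the 41 genes and in 28% of the 50 windows, against 2.26% of 32851 windows of all genes. The genes were Cdc6, Cdk2, Cdt1, Dnmt1, Lig1, Mcm3, Mcm5, Mcm6, Mcm7, Orc1, Pola1, Pold1, Rfc3 and Uhrf1, so that licensing factors made up 7 of the 14. The median step from 6 to 12 h was 0.32 in the 11 analysed genes with E2F letters and 0.16 in the 19 without, and for CCAAT it was 0.32 with and 0.20 without. The order was the other way for the E-box (0.20 with, 0.30 without) and the GC box (0.28 with, 0.32 without). For the progesterone arrays minus 0 h the E2F medians were 0.03 with and 0.05 without. CACGTG stood in 14% of the windows against 7.15% of all, CCAAT in 58% against 37.4%, and the GC box letters GGGCGG in 72% against 35.7%, each on both strands. The letters of a palindromic progesterone response element were in 0 of the 50 windows and in 0.475% of all. Matches of letters are a description of these windows and not evidence of binding.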

How the data were processed

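Values were used as the authors deposited them, on a log2 scale with 1 value for each probe set. The base follows from the digits: 2 raised to the values gave numbers whole at the 4th decimal in 99.76% of cases (tolerance 0.05, under 2000). Per the labels' protocols, RNA preparation, labelling and hybridization followed Affymetrix, while software, background correction and normalization are unknown here. Control probe sets (65 of 12487) were left out, and 121 missing values stayed missing. Values under the 40th percentile (6.60) were set to it, and 7731 probe sets above it on at least 2 arrays were fitted in limma 3.58.1 (R 4.3.3; eBayes with an intensity trend, Benjamini-Hochberg adjustment over all of them): the 5 progesterone arrays minus 0 h, a slope among them, and the 12 to 24 h arrays minus 6 h. Where 1 array stands alone it is assumed to vary like the others, and p-values measure the spread between arrays of different times, not between replicate mice. Precision is limited by the number of arrays.

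Named in full were genes called in a fit, those 1.5-fold in 1 direction at 3 or more times, every cyclin and kinase analysed, and Mcm2 to Mcm7; of other roles up to 2 genes with the highest means. A second probe set is given where its median difference had the other sign or differed by over 0.5, and for Cdk4, Mcm3, Tk1 and Ung besides. Other floors, no filter, quantile normalization, no trend, other probe sets, a 2-fold threshold and leaving out arrays were tried. The genes, lists and tests were chosen with earlier results of these data known.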

Additional observations from a re-analysis of the deposited data

How the results depend on the processing

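Without the 6 h array, 2 genes, Cdk4 (0.62, adjusted p = 0.030) and Mcm3 (0.51, adjusted p = 0.039), were called against 0 h, and leaving out each progesterone array in turn gave 0 to 2 genes. Counting every probe set of a gene, the second probe set of Mcm5 was called. With a floor at the 20th percentile the second probe set of Cdk4 was called too. In the slope no alternative called a gene of the set on its own probe set, and a floor at the 20th percentile called a second probe set of Tk1. For the 12 to 24 h arrays minus 6 h, where 1 gene was called, there were 0 with a floor at the 20th percentile or with no intensity trend (20 and 14 at an unadjusted p under 0.05 in limma), 2 with a floor at the 60th percentile (Ccnd1 and Mcm3), 3 with no filter (Ccnd1, Mcm3 and Orc2) and 0 to 0 when any later array was left out (10 to 13 unadjusted). Of the calls with no filter, those of Ccnd1 and Mcm3 were rises and that of Orc2 was a fall. Over the 5 times, 4 differences were at least 1.5-fold higher, against 2 by the median over probe sets and 0 at 2-fold. Lower were 2, against 1 with a floor at the 60th percentile, 1 after quantile normalization and 0 at 2-fold. Genes with all 4 later arrays above 6 h numbered 24 of 34, against 37.1% of all probe sets. They numbered 32 of 44 with the lower floor (36.4% of all) and 17 of 23 with the higher (37.7%). After quantile normalization there were 22 of 34 (30.4% of all), and with no filter 24 of 46 (23.1%). Over all probe sets, calls against 0 h numbered 208 and 42 to 590 when an array was left out. Slope calls numbered 147, against 71 with the higher floor, 251 after quantile normalization, 24 with 0 h included, 0 with no filter (1486 unadjusted) and 0 to 36 when an array was left out (939 to 1593 unadjusted). Calls after 6 h numbered 26, against 10, 128, 67 and 9 with the lower floor, no filter, quantile normalization and no trend, and 0 to 5 when an array was left out. Apart from the construction with fewer arrays or probe sets, the cause of these moves was not tested. Pooled RNA on 1 array per time gives no measure of error at any time, and the common lower limit compresses differences of dim genes.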

Other observations

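Several genes that act beside the members on the way into S phase are not in the set. On their brightest probe sets and chosen after their values were seen, none was called in limma. Cdc25a, the phosphatase that activates Cdk2, measured 6.64 at 0 h, then 7.10 at 6 h, 7.17 at 12 h, 7.14 at 15 h, and later 6.89 at 18 h and 6.82 at 24 h. It was above 0 h on all 5 progesterone arrays and, unlike Ccnd1 and Cdk2, already at 6 h. Rb1, the retinoblastoma protein that holds E2F factors, measured 6.40 at 0 h, followed by 6.61 at 6 h, 7.51 at 12 h, 7.78 at 15 h, with 7.17 at 18 h and 7.12 at 24 h. Its difference from 0 h reached 1.18 at 15 h, and the fit over all 5 arrays gave 0.64 with an adjusted p of 0.39. Tfdp1, the partner of E2F factors, was 0.17 to 0.37 above 0 h on all 5 arrays.

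Cyclin A2, which takes over Cdk2 in S phase, had the shape of Prim1: Ccna2 measured 8.20 at 0 h and, after progesterone, 7.95 at 6 h, 8.44 at 12 h, 8.41 at 15 h, then 8.51 at 18 h and 8.48 at 24 h. Top1, the topoisomerase that relieves twist ahead of the fork, went the other way, with 9.92 at 0 h, 10.36 at 6 h and 9.77 to 10.03 later, so that its 6 h array was the highest.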
